A study of Homo sapiens with 4 samples.

Results

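The DNA repair genes BRCA1, BRCA2, RAD54L, FANCD2, XRCC2, MSH6 and PMS2 were followed across all 4 RNA-Seq libraries of FaDu cells, an established hypopharyngeal squamous carcinoma line. These 7 genes were chosen by symbol, with earlier results of these data known. Counts of them set beside all genes are therefore descriptions and not independent support. Each of the 7 had 1 row on a chromosome among the 62077 rows of the expression table. All 7 were among the 15057 genes with a mean level of at least 1 FPKM (fragments scaled to exon length and to the total mapped), the genes compared throughout. The 4 groups had 1 library each: N-scr (normoxia, scrambled control), H-scr (hypoxia, scrambled control), N-si (normoxia, TET1 knockdown, called TET1-si) and H-si (hypoxia, TET1-si). Hypoxia was 1% oxygen, with CO2 and nitrogen, for 19 h. The study's methods describe knockdown and scrambled control in these cells as lentiviral short hairpin RNAs, so that the control cells were infected too. The study calls the infected cells clones, and its methods mention no isolation of single cells. No group allows a replicate check, a test or a p-value. Every difference below is one between 2 libraries.

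Homologous recombination repairs breaks through both strands of DNA by copying the sister chromatid, and it works mainly after DNA has been replicated. BRCA1, BRCA2, RAD54L and XRCC2 act in the search for and the invasion of the copied strand, and FANCD2 joins it to the Fanconi anemia pathway, which clears crosslinks between strands. Mismatch repair removes wrongly paired bases left by replication: MSH6 belongs to the step that recognizes the mismatch, and PMS2 to the step that cuts the new strand. Many of these genes are known to be expressed mostly in dividing cells.

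The recovered depth was between 22413000 reads (H-si) and 24520000 reads (H-scr). TET1, the knockdown target, was low in all 4 libraries, at 0.129 FPKM (about 28 reads) in N-scr, 0.331 FPKM (76) in H-scr, 0.0493 FPKM (11) in N-si and 0.122 FPKM (26) in H-si. It was 2.71-fold lower in TET1-si cells under hypoxia and 2.63-fold lower under normoxia. NDRG1, a known hypoxia target, stood at 15.9 and 28.0 FPKM in N-scr and N-si, and at 497 and 579 FPKM in H-scr and H-si. All 6 epithelial marker genes examined were expressed, and 3 of them, the keratins KRT8, KRT18 and KRT5, were at least 2-fold lower in TET1-si cells. Their log2 changes were -1.85, -1.87 and -2.35 under normoxia and -2.07, -2.09 and -1.48 under hypoxia. CDH1 and EPCAM were higher in TET1-si cells, by 0.57 and 0.41 under normoxia and by 0.45 and 0.68 under hypoxia. TP63 changed by -0.27 under normoxia and -0.04 under hypoxia. Of 5 markers of other cells in the table, PTPRC (pan-leukocyte) was at 0 to 0.01 FPKM, COL3A1 (fibroblast collagen) at 0 to 0.24, VWF (endothelial) at 0.16 to 2.94, CD68 (macrophage) at 19.8 to 26.8 and COL1A1 (fibroblast collagen) at 5.29 to 37.0. COL1A1 and VWF passed the 2-fold line upward in hypoxia in both kinds of cell, and the part of these marker shifts in the results was not tested.

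BRCA1 (ENSG00000012048, chromosome 17, 41196312 to 41322290, minus strand, hg19) encodes a ubiquitin ligase subunit that helps to start recombination at breaks. Its level was 40.8 and 56.2 FPKM in the normoxia libraries N-scr and N-si, and 25.6 and 15.5 FPKM in the hypoxia libraries H-scr and H-si. Both hypoxia libraries lay below both normoxia libraries, and the highest level was in N-si and the lowest in H-si. BRCA2 (ENSG00000139618, chromosome 13, 32889611 to 32973805, plus strand) helps to build the protein filament on single-stranded DNA that starts recombination. Its level was 8.44 FPKM under normoxia and 8.74 under hypoxia in scrambled cells, and 8.18 and 3.50 FPKM in TET1-si cells. BRCA2 was thus near the same level in 3 libraries and lower in H-si alone.

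RAD54L (ENSG00000085999, chromosome 1, 46713360 to 46744145, plus strand) is a motor protein that drives strand invasion. It was at 43.3 and 50.1 FPKM in the normoxia libraries N-scr and N-si, and 24.9 and 11.5 FPKM in the hypoxia libraries H-scr and H-si, the same order of libraries as for BRCA1. XRCC2 (ENSG00000196584, chromosome 7, 152341864 to 152373250, minus strand) is a recombination protein that works in a complex with RAD51D. Its level was 19.8 FPKM under normoxia and 8.97 under hypoxia in scrambled cells, and 15.4 and 2.91 FPKM in TET1-si cells. It had the fewest reads of the 7 genes in H-si, about 298, against about 2056 in N-scr.

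FANCD2 (ENSG00000144554, chromosome 3, 10068098 to 10143614, plus strand) is ubiquitinated together with FANCI when replication meets a crosslink. FANCD2 stood at 106.1 and 106.1 FPKM in the normoxia libraries N-scr and N-si, and 46.6 and 22.3 FPKM in the hypoxia libraries H-scr and H-si. The normoxia libraries were level with each other, and H-si was below H-scr. Among the 15057 genes compared, FANCD2 lay at percentile 91.0 in N-scr and 63.0 in H-si.

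MSH6 (ENSG00000116062, chromosome 2, 48010221 to 48034092, plus strand) was at 50.01 FPKM under normoxia and 24.3 under hypoxia in scrambled cells, and 51.4 and 19.4 FPKM in TET1-si cells. Its normoxia libraries stood together and well above its hypoxia libraries. PMS2 (ENSG00000122512, chromosome 7, 6012870 to 6048756, minus strand) was at 8.34 and 9.79 FPKM in the normoxia libraries N-scr and N-si, and 8.13 and 11.7 FPKM in the hypoxia libraries H-scr and H-si. It was the only one of the 7 with its highest level in H-si, and the scrambled libraries had its lowest levels.

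**Figure D1:**
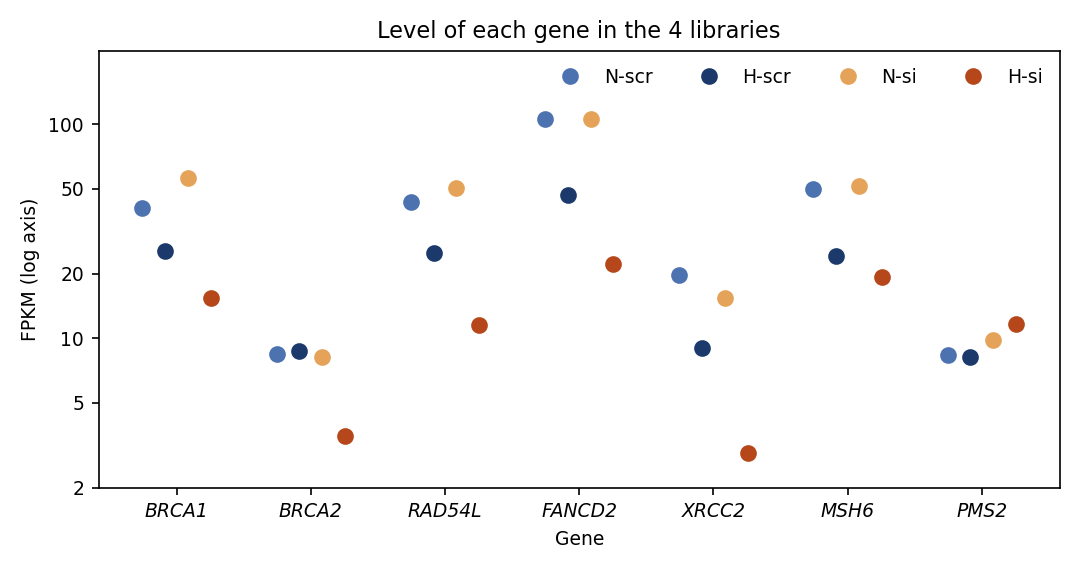
Level of each of the 7 genes in the 4 libraries, in FPKM on a log axis, with 1 point for each library and no error bar since each group had 1 library. The H-si point is the lowest for 6 genes and the highest for PMS2, which went from 8.34 FPKM in N-scr to 11.7 in H-si.

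FPKM is scaled by gene length, so levels could be ordered between genes within a library. FANCD2 was highest in all 4 libraries. In N-scr it was followed by MSH6, RAD54L, BRCA1, XRCC2, BRCA2 and PMS2, and only BRCA2 and PMS2 could not be separated from their neighbour by the 95% interval of counting error. That interval is built from approximate reads and carries no error between cultures. In H-scr the neighbours BRCA1 and RAD54L, RAD54L and MSH6, XRCC2 and BRCA2, and BRCA2 and PMS2 could not be separated, and in N-si the same held for MSH6 and RAD54L. In H-si the order was FANCD2, MSH6, BRCA1, PMS2, RAD54L, BRCA2 and XRCC2, with PMS2 and RAD54L not separated. PMS2 moved from last place in N-scr to place 4 in H-si. XRCC2 moved from percentile 61.7 of all genes compared in N-scr to 17.3 in H-si.

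The promoters of these genes are shown because most members changed together, so that a reader can see which known letters they hold. The windows came from RefSeq on GRCh38.p14, a different build from the hg19 table, and ran from 250 bases before to 50 bases after an annotated start. All 7 genes matched, with 13 windows in all. Letters known to be bound by E2F, a family of cell cycle factors, were searched on both strands as TTTCCCGC, TTTCGCGC, TTTGCCGC and TTTGGCGC. They were present in 5 of the 13 windows, in FANCD2, XRCC2, MSH6 and PMS2, and in 3.31% of all 35116 windows. Capitals below mark these letters and, in FANCD2, also CACGT, and in MSH6 and PMS2 the CCAAT box on either strand.
FANCD2, chr3:10026357-10026442, plus strand: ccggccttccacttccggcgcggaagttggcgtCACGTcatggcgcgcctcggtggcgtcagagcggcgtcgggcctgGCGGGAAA
XRCC2, chr7:152676102-152676131, minus strand: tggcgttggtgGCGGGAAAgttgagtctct
MSH6, chr2:47783085-47783155, plus strand: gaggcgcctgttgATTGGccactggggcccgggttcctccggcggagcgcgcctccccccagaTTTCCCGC
PMS2, chr7:6009107-6009206, minus strand: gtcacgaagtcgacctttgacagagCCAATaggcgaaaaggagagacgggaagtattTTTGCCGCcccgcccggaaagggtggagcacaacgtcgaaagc

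FANCD2 and XRCC2 held the same 8 letters, GCGGGAAA, the reverse complement of TTTCCCGC, which MSH6 held in the other orientation. PMS2 held the variant TTTGCCGC, and its 2 windows with a match overlap and share it. The CCAAT letters were in 6 of the 13 windows and in 34.6% of all windows. The core of the hypoxia response element, searched as ACGTG and GCGTG on both strands, was in 8 of the 13 windows and in 48.4% of all windows. Each of the 7 genes had it in at least 1 window. The share of all genes with it in at least 1 window was not computed, so that count has no background beside it. The letters TTTGAA and TTCGAA of the cell cycle homology region were in none of the 13 windows and in 16.4% of all windows. A match is a description of the letters and not of binding.

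The first comparison asked how the 7 genes answered to hypoxia in cells with the scrambled control. FANCD2 was 2.28-fold lower in H-scr than in N-scr, XRCC2 2.20-fold lower and MSH6 2.06-fold lower. On the log2(FPKM + 0.1) scale used for all changes, these were -1.19 (95% counting interval -1.23 to -1.14) for FANCD2, -1.13 (-1.25 to -1.03) for XRCC2 and -1.04 (-1.11 to -0.97) for MSH6. RAD54L was 1.74-fold lower and BRCA1 1.59-fold lower, below the 2-fold line. BRCA2 changed by 0.05 (-0.03 to 0.13). PMS2 changed by -0.04 (-0.17 to 0.10), and its sign flipped to 0.096 with upper-quartile scaling (libraries set to a like upper quartile of levels) and 0.080 with TPM (each library's levels set to the same sum). Thus 3 of 7 genes were at least 2-fold lower, where 4.53% of all genes compared were, and 0 of 7 were at least 2-fold higher, where 12.9% were. With upper-quartile scaling only FANCD2 stayed past the 2-fold line, at -1.05, and with TPM 2 genes did. Among all genes at least 2-fold changed the share that was higher went from 74.0% to 84.0% (82.8% with TPM). The median change was -0.79 over the 7 genes and 0.05 over all genes.

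In TET1-si cells every member other than PMS2 was at least 2-fold lower in hypoxia. XRCC2 was 5.28-fold lower in H-si than in N-si, FANCD2 4.76-fold, RAD54L 4.35-fold, BRCA1 3.63-fold, MSH6 2.65-fold and BRCA2 2.34-fold. The counting interval of each of these lay below a log2 change of -1, from -2.58 to -2.22 for XRCC2 and from -1.34 to -1.11 for BRCA2. PMS2 was 1.19-fold higher, with a log2 change of 0.25 (0.14 to 0.37). At least 2-fold lower were 6 of 7 genes, against 8.66% of all genes, and at least 2-fold higher were 0 of 7, against 12.5%. Of all genes at least 2-fold changed, the share that was higher went from 59.1% to 70.7% with upper-quartile scaling and to 69.1% with TPM, and 6 of the 7 genes were at least 2-fold lower with each. The median change was -1.85 over the 7 genes and 0.03 over all genes.

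Under hypoxia, TET1-si cells were compared with scrambled cells directly. XRCC2 was 3.08-fold lower in H-si than in H-scr, BRCA2 2.50-fold lower, RAD54L 2.16-fold lower and FANCD2 2.09-fold lower. Their log2 changes were -1.59, -1.30, -1.10 and -1.06, and the intervals of RAD54L (-1.24 to -0.99) and FANCD2 (-1.13 to -0.995) crossed the 2-fold line. BRCA1 was 1.65-fold lower and MSH6 1.25-fold lower. PMS2 was 1.44-fold higher, with a log2 change of 0.52 (0.40 to 0.64). Lower at least 2-fold were 4 of 7 genes, against 8.35% of all genes, and 0 of 7 were higher, against 12.0%. With median-of-ratios scaling (libraries set to a like median ratio over genes) the share of higher genes among all those 2-fold changed went from 59.0% to 48.7%, while the 7 genes again had 4 at least 2-fold lower. With TPM 3 were, since FANCD2 came to -0.993. The median change was -1.06 over the 7 genes and 0.10 over all genes. This comparison shares the H-si library with the hypoxia response in TET1-si cells, so the values of both depend on the same measurement.

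Under normoxia the knockdown left none of the 7 genes 2-fold changed, with 0 of 7 lower (5.56% of all genes) and 0 of 7 higher (12.1% of all genes). BRCA1 had the largest value, 0.46 (0.42 to 0.51) on the log2 scale. RAD54L was at 0.21, PMS2 at 0.23 and XRCC2 at -0.36. FANCD2 was at -0.00 (-0.04 to 0.04) and ran from -0.17 to 0.05 over the alternatives. BRCA2 was at -0.04 (0.005 with TPM) and MSH6 at 0.04 (-0.13 with median-of-ratios and -0.08 with upper-quartile scaling), so their signs depended on the scaling. Median-of-ratios scaling brought the share of higher genes among all those 2-fold changed from 68.6% to 55.6%. The median change was 0.04 over the 7 genes and 0.15 over all genes.

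**Figure D2:**
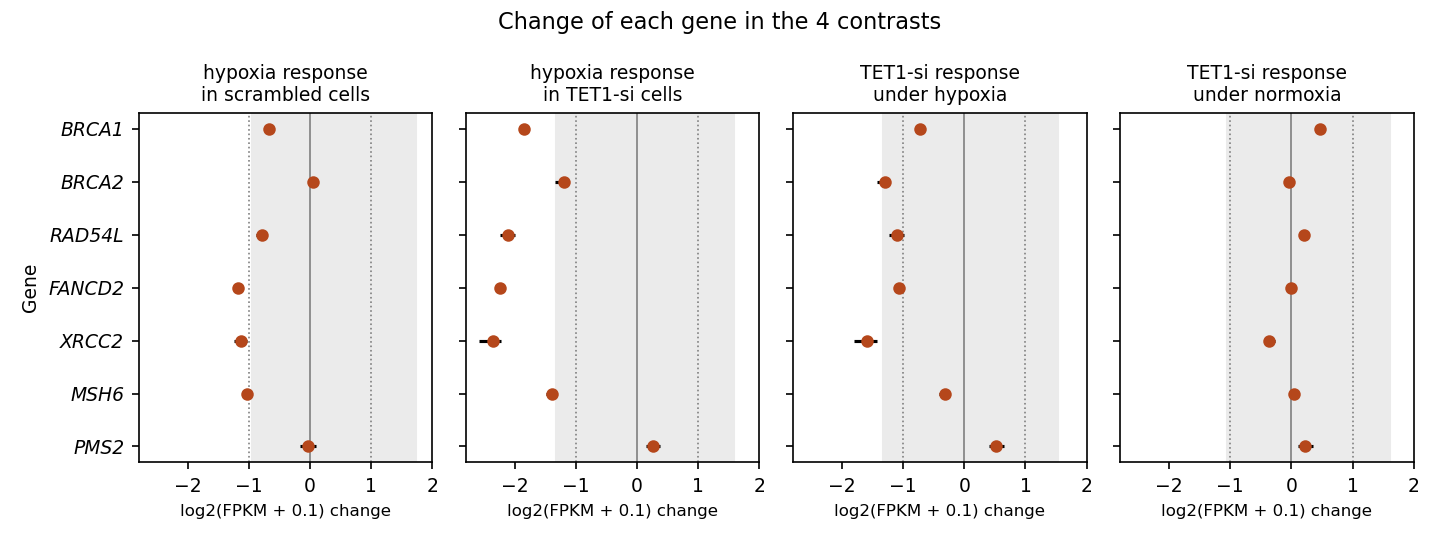
Change of each of the 7 genes in the 4 contrasts, as log2(FPKM + 0.1) differences, with black lines for the 95% counting interval, dotted lines at a 2-fold change in each direction, and a grey band from percentile 5 to percentile 95 of all genes compared. In hypoxia of TET1-si cells 6 genes lie beyond the 2-fold line, from -1.20 for BRCA2 to -2.36 for XRCC2, while PMS2 is at 0.25.

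The difference of the hypoxia responses, computed as the TET1-si value minus the scrambled value, asked how far the response depended on the knockdown. It was -1.32 for RAD54L (95% counting interval -1.47 to -1.18), -1.25 for BRCA2 (-1.41 to -1.14), -1.23 for XRCC2 (-1.47 to -1.05), -1.19 for BRCA1 (-1.27 to -1.10) and -1.06 for FANCD2 (-1.14 to -0.99). These 5 values lay close together, although the genes differed in their response in scrambled cells, from 0.05 for BRCA2 to -1.19 for FANCD2. The 2 mismatch repair genes stood apart from them, MSH6 at -0.36 (-0.47 to -0.26) and PMS2 at 0.29 (0.12 to 0.46). A difference of -1 or below was found for 5 of 7 genes and for 7.86% of all genes, and a difference of 1 or above for 0 of 7 and 4.87% of all genes. The interval of a difference was a normal approximation and covers counting error only.

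H-si had the lowest level of the 4 libraries for 6 of 7 genes, which 25.9% of all genes showed. Both hypoxia libraries lay below both normoxia libraries for 5 of 7 genes (BRCA1, RAD54L, FANCD2, XRCC2 and MSH6), and for 23.1% of all genes. The study picked differentially expressed genes by inequalities between libraries. H-scr had to exceed H-si more than 2-fold and also exceed N-scr, and N-si was not to exceed N-scr. BRCA2 met all 3, as did 578 of the 15057 genes compared. For BRCA2 the hypoxia response in scrambled cells (-0.03 to 0.13) and the TET1-si response under normoxia (-0.13 to 0.04) had counting intervals that include 0, and with TPM the latter turned to 0.005, so that the last inequality failed. XRCC2, RAD54L and FANCD2 met the first and failed the second, since H-scr lay below N-scr.

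Known binding partners of BRCA1, BRCA2, XRCC2 and FANCD2 were read next. BARD1, which forms the ubiquitin ligase with BRCA1, was at 38.8 FPKM under normoxia and 14.7 under hypoxia in scrambled cells, and 60.8 and 28.6 FPKM in TET1-si cells. Its log2 change after TET1-si under hypoxia was 0.96, where that of BRCA1 was -0.72. PALB2, which bridges BRCA1 and BRCA2, was at 27.5, 28.6, 21.1 and 17.9 FPKM in N-scr, H-scr, N-si and H-si. Its change after TET1-si under hypoxia was -0.68, and that of BRCA2 was -1.30.

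RAD51D, the partner of XRCC2, was at 16.4, 14.6, 27.9 and 16.2 FPKM in N-scr, H-scr, N-si and H-si, and changed by 0.14 after TET1-si under hypoxia against -1.59 for XRCC2.

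FANCI, which is ubiquitinated with FANCD2, was at 336 FPKM under normoxia and 250 under hypoxia in scrambled cells, and 145 and 38.6 FPKM in TET1-si cells. After TET1-si it changed by -1.21 under normoxia, where FANCD2 was at -0.00, and by -2.69 under hypoxia. FANCI lies on chromosome 15, from 89787180 to 89860492. BLM, read below, lies on the same chromosome, from 91260558 to 91358859, and was also lower after TET1-si in both oxygen states. The part of this location in the values of FANCI and BLM was not tested.

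**Figure D3:**
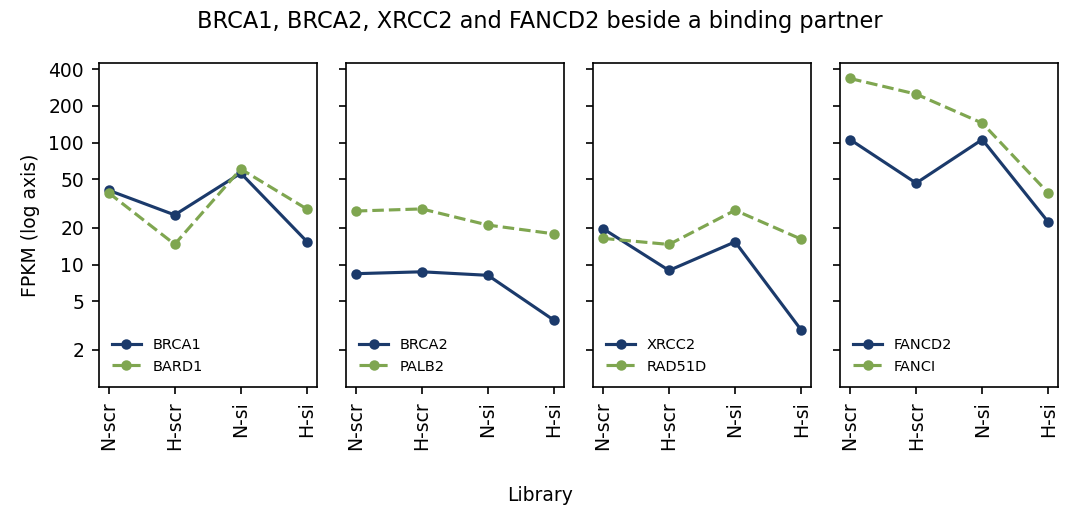
Level of BRCA1, BRCA2, XRCC2 and FANCD2 (solid line) and of a binding partner of each (dashed line) in the 4 libraries, in FPKM on a log axis, with 1 point for each library joined only to guide the eye. FANCD2 is level between N-scr and N-si (106.1 FPKM in each), whereas its partner FANCI goes from 336 FPKM in N-scr to 145 in N-si.

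The wider pathways were read from lists. Of the 35 genes of homologous recombination, 31 were not among the 7. Of these 31, 2 were at least 2-fold lower in hypoxia of scrambled cells and 17 in hypoxia of TET1-si cells, with medians of -0.50 and -1.09 and none at least 2-fold higher. Over all genes compared 4.53% and 8.66% were lower, so the 2 in scrambled cells were near the share of all genes. BLM, a helicase that undoes crossed DNA intermediates, was at 55.1 FPKM under normoxia and 33.5 under hypoxia in scrambled cells, and 24.2 and 4.36 FPKM in TET1-si cells. EXO1, a nuclease that resects DNA ends and also serves mismatch repair, was at 27.3, 13.5, 37.4 and 7.33 FPKM in N-scr, H-scr, N-si and H-si. XRCC3, another recombination protein, was lower in both TET1-si libraries, at 55.7 and 35.3 FPKM in N-scr and H-scr against 27.9 and 11.2 in N-si and H-si. RAD52, which anneals single strands, had the largest positive hypoxia responses of the list, 0.25 and 0.51. After TET1-si under hypoxia 8 of the 31 were at least 2-fold lower (8.35% of all genes), and under normoxia 1 was (5.56% of all genes).

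Of 17 Fanconi genes other than FANCD2, 2 were at least 2-fold lower in hypoxia of scrambled cells (4.53% of all genes) and 9 in TET1-si cells (8.66% of all genes), with medians of -0.37 and -1.16. FANCB, a subunit of the core complex, changed by -1.12 and -2.23, and UBE2T, the ubiquitin-conjugating enzyme of FANCD2, by -0.86 and -2.05. WDR48, a partner of the enzyme that removes ubiquitin from FANCD2, changed by 0.54 and 0.72. FAN1, a nuclease that FANCD2 recruits, changed by -1.02 in scrambled and -0.14 in TET1-si cells. After TET1-si under hypoxia 6 of the 17 were at least 2-fold lower (8.35% of all genes) and 1 at least 2-fold higher (12.0% of all genes).

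Of 6 mismatch repair genes other than MSH6 and PMS2, 1 was at least 2-fold lower in hypoxia of scrambled cells (4.53% of all genes) and 2 in TET1-si cells (8.66% of all genes), with medians of -0.51 and -0.93. EXO1 was among those in both. MLH3, another mismatch repair protein, was at 13.1 and 35.2 FPKM in the normoxia libraries N-scr and N-si, and 12.5 and 37.8 FPKM in the hypoxia libraries H-scr and H-si. It was the 1 gene of the list that was at least 2-fold higher after TET1-si, by 1.59 under hypoxia and 1.42 under normoxia on the log2 scale.

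Markers of proliferation were lower in hypoxia, as most members were. All 20 on the list had a negative hypoxia response in scrambled cells, from -0.92 to -0.36. There 0 of 20 were 2-fold lower (4.53% of all genes), against 3 of the 7 members, which lay just past the line at -1.04 to -1.19. The medians were closer, at -0.67 for the markers and -0.79 for the 7 genes, and BRCA2 changed by 0.05. In TET1-si cells 20 of 20 were at least 2-fold lower (8.66% of all genes), from -2.85 to -1.47. So were 6 of the 7 members, while PMS2 was at 0.25. The median of the difference of responses was -1.25 beside -1.18 for the 7 genes. After TET1-si under hypoxia 13 of 20 were at least 2-fold lower (8.35% of all genes). Under normoxia 2 were (5.56% of all genes), with changes from -1.55 to 0.86. MKI67, the antigen of cycling cells, was at 63.6 FPKM under normoxia and 49.4 under hypoxia in scrambled cells, and 51.9 and 15.5 FPKM in TET1-si cells. In such bulk samples fewer dividing cells and less RNA in each cell cannot be told apart, and the part of dividing cells in the values of the 7 genes was not tested.

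**Figure D4:**
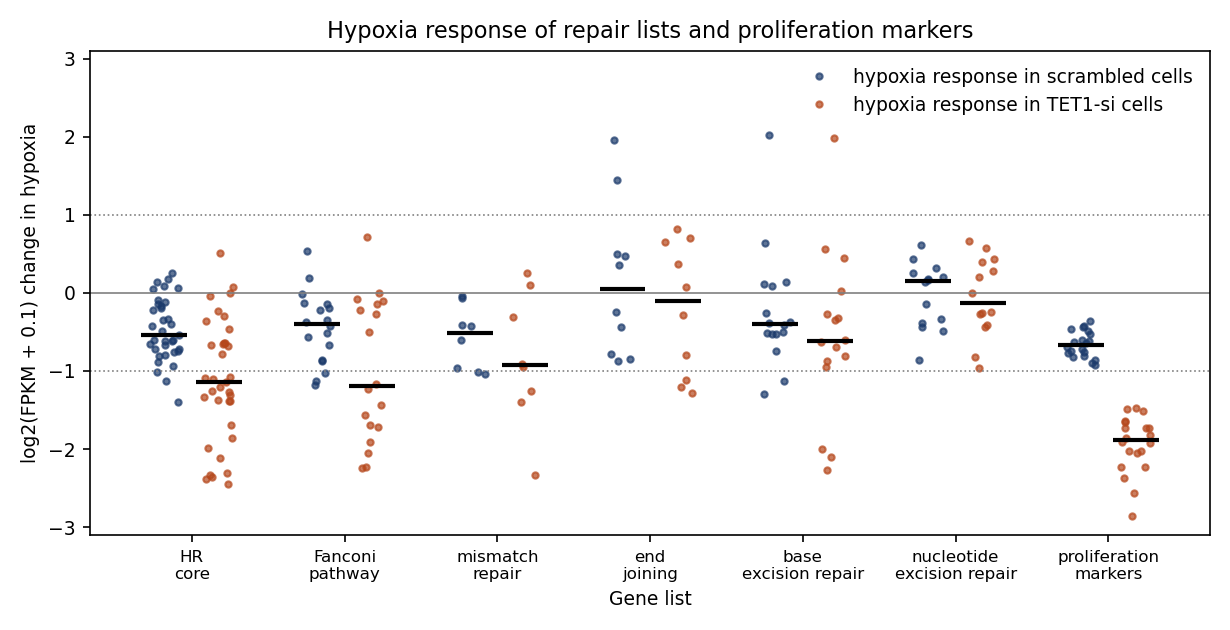
Hypoxia response of each gene on the repair lists and on the proliferation list, as log2(FPKM + 0.1) changes in scrambled (blue) and TET1-si cells (orange), with 1 point for each gene and a bar at the list's median. The proliferation markers have medians of -0.67 and -1.89, the homologous recombination genes -0.54 and -1.14, and the nucleotide excision repair genes 0.15 and -0.13.

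The genes whose pattern over the 4 libraries was most like that of the members were then named. The measure was the distance between a gene's 4 centred log2 levels and the mean of the members' centred levels (Euclidean), over 11907 protein-coding genes. The nearest were C11orf75 (0.0281), NUP93 (0.0456), KIF14 (0.0507), TPX2 (0.0538) and TTI1 (0.0622). TPX2, a factor of the mitotic spindle, was at 131.6 and 131.9 FPKM in the normoxia libraries N-scr and N-si, and 79.4 and 45.4 FPKM in the hypoxia libraries H-scr and H-si. Of the members themselves, BRCA1 was closest to their mean (0.31) and PMS2 farthest (1.55).

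PMS2 has pseudogene copies of near-identical sequence, between which reads can be split, so its values are uncertain. The table held 9 of them, 5 with a mean of at least 1 FPKM. Their summed level was 47.0 FPKM under normoxia and 38.6 under hypoxia in scrambled cells, and 43.7 and 38.8 FPKM in TET1-si cells. The copies differ in length, so this sum of FPKM is not a sum of reads. PMS2P1 had the highest level of the copies, at 23.4, 13.6, 22.8 and 14.99 FPKM in N-scr, H-scr, N-si and H-si. These levels stood for about 174, 109, 181 and 109 reads. PMS2P3 was instead higher in both hypoxia libraries, at 7.26, 8.97, 5.72 and 9.14 FPKM in the same order. FANCD2P2, a copy of FANCD2, was listed at 0.

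Genes on the other strand overlap some members, and the counting was not stated to use strand. FANCD2OS, whose locus shares 20614 bases with that of FANCD2, was at 6.17 and 5.16 FPKM in the normoxia libraries N-scr and N-si. It was at 2.58 and 1.96 FPKM in the hypoxia libraries H-scr and H-si. Without strand, reads from exons that both genes cover could not be told apart, and the overlap of exons was not computed. LRRC41 overlaps RAD54L and was at 30.4, 36.9, 33.4 and 43.3 FPKM in N-scr, H-scr, N-si and H-si, the opposite direction to RAD54L. FBXO11 overlaps MSH6 and was at 26.8 to 28.0 FPKM in all 4 libraries. The locus of NBR2 shares 28062 bases with that of BRCA1. NBR2 was at 7.19 FPKM under normoxia and 9.69 under hypoxia in scrambled cells, and 9.02 and 13.3 FPKM in TET1-si cells.

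XRCC2 and PMS2 both lie on chromosome 7. Over its 550 protein-coding genes compared, the TET1-si response had a median of -0.32 under hypoxia and -0.26 under normoxia, beside 0.10 and 0.15 for all genes. The 20 genes nearest XRCC2 had medians of 0.10 and 0.15, and the 20 nearest PMS2 -0.06 and 0.10, against -1.59 and -0.36 for XRCC2 itself and 0.52 and 0.23 for PMS2. Whether chromosome 7 differed in copy number between the scrambled and TET1-si cells was not tested.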

How the data were processed

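Total mRNA of 4 FaDu libraries had been sequenced on a HiSeq instrument. The authors deposited gene-level FPKM values, 1 column per library, made with TopHat and Cufflinks on hg19 with Ensembl annotations; versions and the release are not given in the sources used here. The labels describe single-end reads and the study's methods paired-end reads. Of the gene IDs, 111 stand on several rows and were left out.

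Changes were computed as log2(FPKM + 0.1), which understates those of low genes, where the mean FPKM reached 1. A gene was called at a 2-fold change. FPKM are not counts, so no count test was run. Depth was recovered from 6330 one-exon genes, where 97.2% to 97.5% of low values were whole reads within 0.05. Reads per gene gave 95% Clopper-Pearson intervals, which cover counting error only. Calls were tested on simulated data.

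Named were the 7 members, fixed partners (some are not reported here), overlapping genes and copies, the 5 nearest patterns, and genes among the 3 largest changes of a direction, contrast and repair list. Members and lists were chosen with earlier results of these data known. The 8 alternatives changed the pseudocount, scaling, filter or fold. Python 3.11.15, pandas 2.3.3 and scipy 1.17.1 were used.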

Additional observations from a re-analysis of the deposited data

Results flagged for a closer look

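BRCA1 and RAD54L answered to TET1-si in opposite directions in the 2 oxygen states, and the difference was not tested, since each group had 1 library. BRCA1 changed by -0.721 on the log2 scale after TET1-si under hypoxia and by 0.463 under normoxia. RAD54L changed by -1.104 under hypoxia and by 0.213 under normoxia. Both kept these signs under all 8 alternatives, although RAD54L under normoxia came down to 0.046 with median-of-ratios scaling.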

How the results depend on the processing

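Of 35 member values (7 genes in 5 comparisons), 31 kept their sign in all 8 alternatives, and the others are given beside their results. Of the members' medians, that for TET1-si under normoxia (0.04) turned its sign with 2 scalings, and 108 alternative counts and medians moved little. With upper-quartile scaling 1 member was at least 2-fold lower in hypoxia of scrambled cells, and with a 1.5-fold line 5 were, against 3. The members' median for the hypoxia response in scrambled cells was -0.660 with upper-quartile scaling and -0.676 with TPM. In TET1-si cells it was -1.797 with a pseudocount of 1, -1.695 with upper-quartile scaling and -1.720 with TPM. For TET1-si under hypoxia it was -1.181 with median-of-ratios and -1.150 with upper-quartile scaling, and under normoxia it turned to -0.128 and -0.078. The median difference of responses was -1.031 with a pseudocount of 1. Depth limited the values of XRCC2 in H-si most. No paired analysis was possible because the groups had 1 library each. Differences between cultures cannot be told apart from those between conditions.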

Other observations

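Other repair pathways were read from lists in the same libraries. Of 16 base excision repair genes, 3 were at least 2-fold lower in hypoxia of TET1-si cells, where 8.66% of all genes were: UNG, FEN1 and NEIL3, named after their values were seen. FEN1, the flap nuclease that also matures lagging strands, was at 76.3 and 88.2 FPKM in the normoxia libraries N-scr and N-si, and 53.0 and 18.2 FPKM in the hypoxia libraries H-scr and H-si. NEIL1, a DNA glycosylase, was named likewise and went the other way, at 2.80, 11.6, 9.62 and 38.2 FPKM in N-scr, H-scr, N-si and H-si. Of 14 nucleotide excision repair genes, 0 were 2-fold changed in hypoxia in either kind of cell, with medians of 0.15 and -0.13. Among all genes compared, 4.53% were at least 2-fold lower and 12.9% at least 2-fold higher for H-scr against N-scr. For H-si against N-si these shares were 8.66% and 12.5%. Of 10 end joining genes, 2 were at least 2-fold higher in hypoxia of scrambled cells (12.9% of all genes) and 3 at least 2-fold lower in TET1-si cells (8.66% of all genes).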
